A study of Cicer arietinum with 8 samples.

Results

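Among the 30692 loci of a chickpea root transcriptome, 77 were constantly higher in the salinity tolerant (ST) genotype than in the salinity sensitive (SS) genotype. A locus belonged to this group when it had a gene name, expression above 0 in all 4 groups, and at least 2 times the SS level in ST both under control conditions and under salinity stress. It also had to reach FPKM 5 in both ST groups (FPKM, mapped fragments scaled by transcript length and by the size of the library). Within each genotype its stressed and control values had to lie less than 1.5-fold apart. The members were thus selected on all 4 expression values of a locus, and their levels and ratios are given as a description with no test.

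The SS genotype was ICCV2, a kabuli chickpea, and the ST genotype was JG62, a desi chickpea. Roots were taken from 18 day old seedlings that had received 80 mM NaCl on alternate days for 6 days from day 12, or from control seedlings of the same age. Each of the 4 groups, called SS-C and SS-S (sensitive, control and stressed) and ST-C and ST-S (tolerant, control and stressed), had 2 libraries, but the deposited table holds 1 FPKM value per locus and group, in which the authors combined both libraries. No spread between libraries, no SD and no test between groups could be obtained from these values, and FPKM alone leaves the sequencing depth unknown. The sample labels name root as the source, whereas the tissue entry reads salinity and the series description gives an age of 17 days. Reads of both genotypes were mapped to the same kabuli genome, so a different transcript level and a different fit of a genotype's reads to that genome cannot be told apart.

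Roots are the tissue that meets salt in the soil. Plants limit the damage by keeping sodium out of the root or moving it into the vacuole, by making compatible solutes and by removing reactive oxygen species. Genes behind such traits can be switched on by salt, or they can differ between genotypes before any salt is given, and the loci described here were chosen for a difference of the latter kind. No role is given to any member, since the deposited table holds only gene names of the form Ca_ and a number, the text of the study gives no role for a member, and the RefSeq gene table of chickpea (Cicar.CDCFrontier_v2.0, 29938 genes) shares 0 names with it. For the same reason the labelled tissue could not be checked against root markers. None of the 17 genes that the main text of the study names by such an identifier was a member. The study chose those genes for salt response and methylation in these plants, and the rule leaves out loci with a marked salt change. This count was thus largely fixed beforehand and is not read as a result.

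The requirements narrowed the table in steps. Of 27876 loci with a gene name, 18828 were above 0 in all 4 groups and 13741 of these had FPKM of at least 5 in both ST groups. In control conditions 197 of the 13741 loci (1.43%) were at least 2-fold higher in ST, and under salinity stress 457 (3.33%) were. Both ratios reached 2 at 128 loci (0.932%), which were 65.0% of the loci past 2-fold in control and 28.0% of those past 2-fold under stress. The limit on salt change then left 77 of the 128. Set against the 12544 loci that met the level and salt limits, the members made up 0.614%. Of the 51 loci that the salt limit removed, 28 differed 1.5-fold or more between stress and control in ST alone, 14 in SS alone and 9 in both. In ST, 31 of the removed loci were higher under salt by 1.5-fold or more and 6 were lower. The same split was not counted for all loci past the salt limit, so nothing particular to the 51 is read from it.

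The members lay well below the usual level of such loci in SS and somewhat below it in ST. The rule itself favours a low SS level, since ST had to be at least 2 times as high. Their median FPKM was 7.07 in SS-C, 6.88 in SS-S, 17.9 in ST-C and 19.3 in ST-S. The corresponding medians over the 12544 loci were 26.0, 25.3, 25.6 and 26.4. In SS the members ran from FPKM 0.392 to 77.9, and in ST from 5.38 to 317. As a ratio, ST exceeded SS by a median of 2.58-fold in control (log2 ratio 1.37, from 1.002 to 4.53) and 3.23-fold under salinity stress (log2 ratio 1.69, from 1.02 to 4.30). Over the 12544 loci the median log2 ratios were -0.01 and 0.04. In every member the lower ST value exceeded the higher SS value, which the rule fixes, and in 69 of the 77 it was at least 2 times as high. By the lower of their ST to SS ratios, 5 members were at 8-fold or more, 6 between 4-fold and 8-fold, 8 between 3-fold and 4-fold and 58 (75.3%) between 2-fold and 3-fold.

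**Figure D1:**
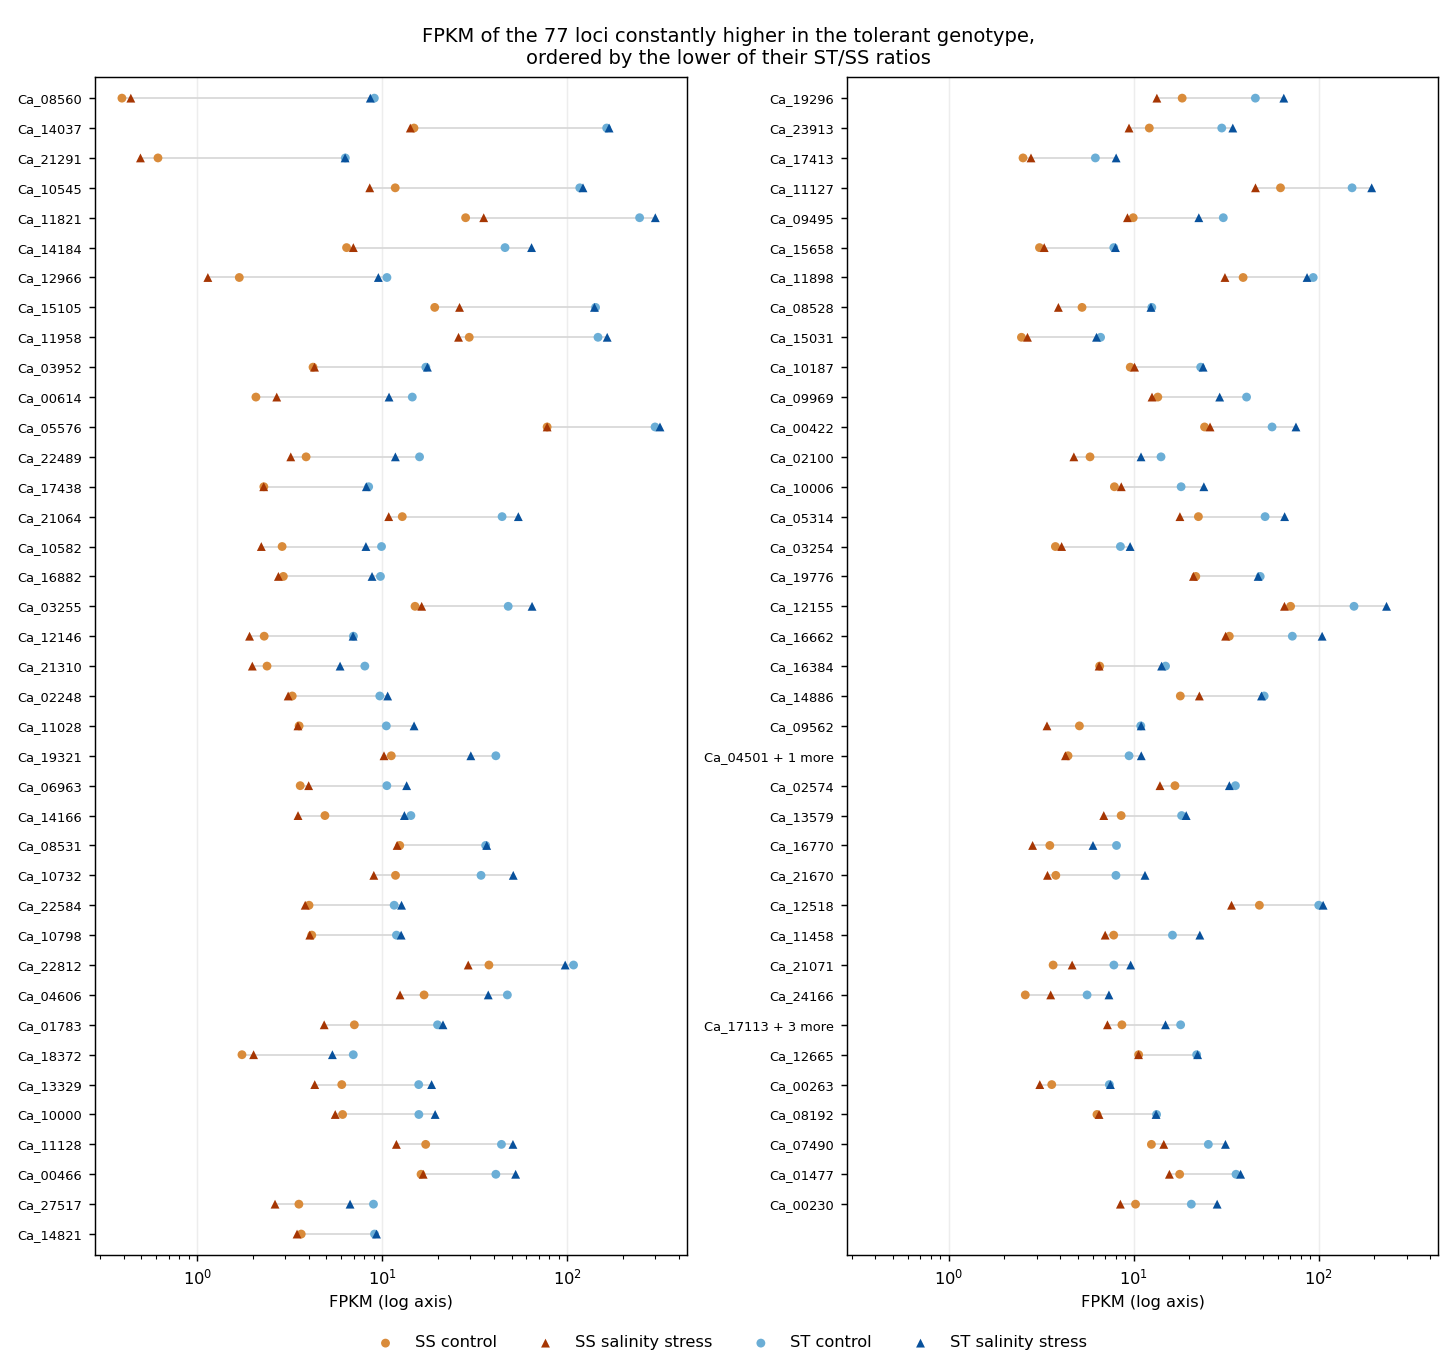
FPKM (log axis) of each of the 77 members in SS-C, SS-S, ST-C and ST-S, 1 row per locus, ordered by the lower of the ST to SS ratios. Each point is the authors' value for a group with both libraries combined. The blue ST points lie to the right of the orange SS points in every row, with the widest gap in Ca_08560 (0.392 and 0.438 in SS, 9.07 and 8.63 in ST).

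The widest difference was in Ca_08560 (locus XLOC_018461), a transcript near the bottom of the scale in SS. It had FPKM 0.392 in SS-C and 0.438 in SS-S, against 9.07 in ST-C and 8.63 in ST-S, so ST was 23.1-fold higher in control and 19.7-fold higher under stress. Ca_21291 (XLOC_028265) had the same form, with 0.614 and 0.494 in the SS groups and 6.32 and 6.30 in the ST groups. These were the 2 members under FPKM 1 in both SS groups, and their ratios rest on small SS values, as shown by the change in the lower ratio of Ca_08560 from 4.30 to 2.74 on the log2 scale with a pseudocount of 1.

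The other 3 members at 8-fold or more were abundant in ST and not near 0 in SS. Ca_14037 (XLOC_009841) had FPKM 14.9 in SS-C, 14.2 in SS-S, 163 in ST-C and 168 in ST-S, and its ST to SS ratio reached 11.0 in control and 11.9 under stress. Ca_10545 (XLOC_004810) stood at 11.8 and 8.56 in the SS groups and at 117 and 122 in the ST groups, which is 9.94-fold in control and 14.2-fold under stress. In Ca_11821 (XLOC_023591), SS values of 28.2 and 35.4 faced ST values of 246 and 299, and both genotypes were about as much higher under salt, by 1.25-fold in SS and 1.22-fold in ST. In these 3 loci both ST values lay far above both SS values.

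A difference of 4-fold or more in both conditions was found at 11 loci, 0.0877% of the 12544. Besides the 5 above, these were Ca_14184, Ca_12966, Ca_15105, Ca_11958, Ca_03952 and Ca_00614. Ca_14184 (XLOC_011884) had FPKM 6.42 and 6.98 in SS control and stress and 46.1 and 64.2 in ST control and stress. Its ratio was 7.19 in control and 9.19 under stress, with a 1.39-fold higher ST value and a 1.09-fold higher SS value under salt. Ca_12966 (XLOC_024234), a weakly expressed locus, had 1.69 and 1.14 in SS and 10.6 and 9.53 in ST, so both genotypes were somewhat lower under salt. Ca_15105 (XLOC_012060) went the other way, with a ratio of 7.40 in control and 5.36 under stress. Its SS level was 19.2 in control and 26.2 under stress, while ST stayed at 142 and 140.4.

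Ca_11958 (XLOC_008329) had FPKM 29.5 (SS-C) and 25.9 (SS-S) in the sensitive genotype and 147 and 165 in the ST groups. Ca_03952 (XLOC_015694) had the most even ratios of all members, 4.07 in control and 4.08 under stress, with SS values of 4.23 and 4.31 and ST values of 17.2 and 17.6. The ratio of Ca_00614 (XLOC_002049) narrowed from 7.002 to 4.05 under salt, where SS went from 2.08 to 2.69 and ST from 14.5 to 10.9. The 11 loci at 4-fold or more had a median of 55.2 for their mean ST level and 6.70 for their mean SS level. Among the other members these medians were 18.1 and 6.96, so the medians of the widely separated loci were higher in ST and close to those of the others in SS. The 11 loci were split off by the ratio of these same values, so no trait is read from these levels.

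Between 3-fold and 4-fold, Ca_05576 (XLOC_009665) had the highest level of all members. Its FPKM was 77.9 in SS-C and in SS-S, 298 in ST-C and 317 in ST-S, a ratio of 3.83 in control and 4.07 under stress. The SS level was thus nearly the same in both conditions, and the ST level was 1.06-fold higher under salt. Ca_21064 (XLOC_026455) and Ca_03255 (XLOC_020259) were of middle abundance. The former had 12.8 and 10.8 in SS and 44.5 and 54.4 in ST, the latter 15.0 and 16.3 in SS and 48.0 and 64.6 in ST. The other 5 loci of this range (Ca_22489, Ca_17438, Ca_10582, Ca_16882 and Ca_12146) were weakly expressed. None of their SS values exceeded 3.88, and their ST values lay between 6.96 and 15.9.

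The 58 loci between 2-fold and 3-fold ran from FPKM 1.75 to 70.4 in SS and from 5.38 to 232 in ST, with medians of 7.82 and 6.95 in the SS groups and 18.0 and 20.3 in the ST groups. Some of them were among the strongest transcripts of the group. Ca_12155 (XLOC_009072) had FPKM 70.4 and 65.3 in SS and 155 and 232 in ST, and Ca_11127 (XLOC_019024) had 62.1 and 45.5 in SS and 151 and 193 in ST. With Ca_05576, Ca_11821, Ca_14037 and Ca_11958 they form the 6 members of highest ST level. These 6 held 36.7% of the members' summed FPKM in ST-C and 39.0% in ST-S, against 28.9% and 29.6% in the corresponding SS groups. The sum over all members was 981 in SS-C, 893 in SS-S, 3165 in ST-C and 3525 in ST-S. Below these 6 in abundance, Ca_22812 had FPKM 37.7 and 29.2 in SS and 108 and 97.5 in ST, and Ca_16662 had 32.8 and 31.4 in SS and 72.0 and 104 in ST. In all, 8 members had FPKM of at least 100 in both ST groups, and none of these 8 exceeded 77.9 in SS.

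Under the limit of 1.5-fold, the members still differed in how they stood with and without salt. In SS, 54 of 77 (70.1%) were lower under stress, compared with 54.7% of the 12544 loci, and their stress to control ratio had a median log2 value of -0.10 (from -0.58 to 0.46) against -0.02. In ST, 47 (61.0%) were higher under stress, compared with 59.6%, with a median log2 ratio of 0.04 (from -0.48 to 0.58) against 0.05. As a result the ST to SS ratio was larger under stress than in control in 54 members (70.1%), against 61.5% of the 12544 loci. The combination of a lower SS and a higher ST value under salt was the most frequent, at 31 members (40.3%), and was seen in 29.8% of the 12544 loci. A further 23 members were lower in both genotypes, 16 higher in both, and 7 higher in SS and lower in ST. These shares come from the same values as the rule and differ in the level of the loci behind them, so nothing particular to the members is read from them.

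Examples of the less common combinations were picked after their values were seen. The 7 members that were higher in SS and lower in ST under salt were Ca_08560, Ca_15105, Ca_00614, Ca_18372, Ca_15031, Ca_14886 and Ca_08192, and 3 of these were among the 11 loci at 4-fold or more. Ca_08192 differed only slightly (1.03-fold higher in SS, 1.01-fold lower in ST), and the SS values of Ca_08560 were small (FPKM 0.392 and 0.438). In Ca_14886 the SS values were 17.9 and 22.6 and the ST values 50.7 and 49.0, so that its ratio was 2.84 in control and 2.17 under stress. Among the members lower in both genotypes, Ca_04606 had 16.8 in SS-C, 12.5 in SS-S, 47.5 in ST-C and 37.4 in ST-S. Its ratio was nearly kept, at 2.82 and 2.997 without and with salt. Ca_27517 was lower in both by a similar factor, from 3.55 to 2.63 in SS and from 8.97 to 6.70 in ST, and its ratio was 2.53 and 2.54. Of the members higher in both, Ca_24166 went from 2.59 to 3.56 in SS and from 5.59 to 7.34 in ST, and Ca_21071 from 3.67 to 4.64 in SS and from 7.81 to 9.62 in ST. In the last 3 loci both genotypes differed under salt in the same direction and by similar factors.

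**Figure D2:**
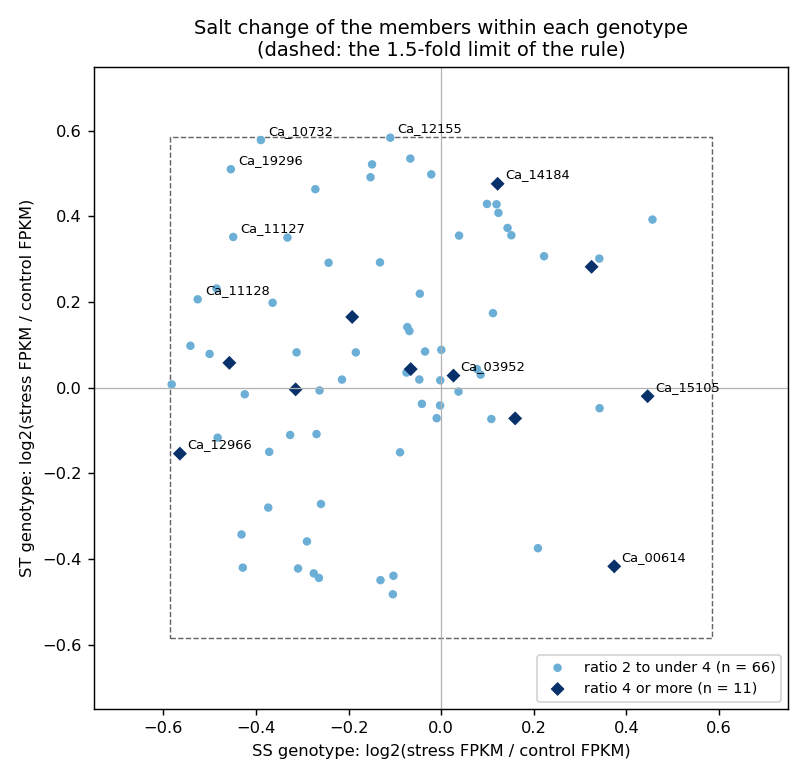
Log2 ratio of stressed to control FPKM in SS (horizontal axis) and ST (vertical axis) for the 77 members, 1 point per locus, with the 11 loci at 4-fold or more as diamonds. The dashed square marks the 1.5-fold limit of the rule. Of the 77 points, 31 lie in its upper left part (lower in SS and higher in ST under salt), among them Ca_10732, Ca_19296, Ca_11127 and Ca_11128. The lower right part holds the fewest, at 7.

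In 24 members (31.2%) both genotypes stayed within 1.2-fold of their control, against 67.1% of the 12544 loci. These shares come from the values that the rule used, and the members had the lower levels in SS given above. No trait of the members is therefore read from them. Among the members, the smallest salt changes were in Ca_12665, Ca_03952 and Ca_08192. Ca_12665 (XLOC_015645) had FPKM 10.6 in both SS groups and 21.9 and 22.1 in ST control and stress, so its ratio was 2.06 and 2.09. Ca_08192 (XLOC_008084) was at 6.33 and 6.49 in SS and at 13.3 and 13.2 in ST, with a lower ratio of 2.03. Together with Ca_03952, these loci kept the same level in each genotype with and without salt, to within 1.03-fold.

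In 14 members the control and stress ratios lay at least 1.5-fold apart, and in 13 of these the larger ratio was the one under stress. The share of the 12544 loci with ratios this far apart was not counted. Of all 12544 loci, 61.5% had the larger ratio under stress, but this share covers gaps of any size. Without a like share, nothing particular to the members is read from the count. The 3 members with the widest gap were Ca_10732, Ca_19296 and Ca_11127, and in each the difference between the genotypes was larger under salt. Ca_10732 (XLOC_024652) had FPKM 11.8 and 9.01 in SS and 34.2 and 51.1 in ST, and its ratio went from 2.90 to 5.67. Ca_19296 (XLOC_001267) had 18.3 and 13.3 in SS and 45.4 and 64.7 in ST, and its ratio went from 2.49 to 4.85. In Ca_11127 the ratio was 2.44 in control and 4.25 under stress. In each of these loci the SS value was lower and the ST value higher under salt, both by less than 1.5-fold.

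Ca_11127 and Ca_11128 (XLOC_019024 and XLOC_019023) were the only members listed directly next to each other in the table, and they carry consecutive gene numbers. Their profiles were alike in form, at different levels. Ca_11128 had FPKM 17.2 and 11.9 in SS and 44.1 and 50.9 in ST, with ratios of 2.57 and 4.27, beside the 2.44 and 4.25 of Ca_11127. In both loci SS was lower and ST higher under salt. Another pair with consecutive numbers, Ca_03254 and Ca_03255, stood 1591 loci apart in the table. Ca_03254 (XLOC_021850) had 3.77 and 4.08 in SS and 8.47 and 9.56 in ST, lower than Ca_03255 in each group, and both were higher under salt in each genotype. Ca_08531 and Ca_08528 were 2 loci apart, Ca_12146 and Ca_12155 were 5 apart, and 2 more pairs lay within 12 loci of each other.

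Loci listed beside a member had much the same ratio between the genotypes as the table at large. Among the 553 neighbour positions within 5 loci of a member that were above 0 in all groups and at FPKM 1 or more in one, the median log2 ratio of ST-C to SS-C was -0.02, against -0.01 over all 20162 such loci. ST was at least 2-fold higher in both conditions at 9 of the positions (1.63%), compared with 1.47% over all such loci. The 9 include members that lie within 5 loci of another member, each pair counted from both sides. These pairs were Ca_11127 with Ca_11128, Ca_08531 with Ca_08528 and Ca_12146 with Ca_12155. In blocks of 5000 loci along the table, the first 25000 loci held between 10 and 17 members a block, which was 0.42% to 0.728% of the loci that met the level and salt limits there. The next 5000 loci held 7 members of 741 such loci (0.945%), and the loci after these held 0 of 95. Gene order along the chromosomes was not used, since the table gives no coordinates.

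**Figure D3:**
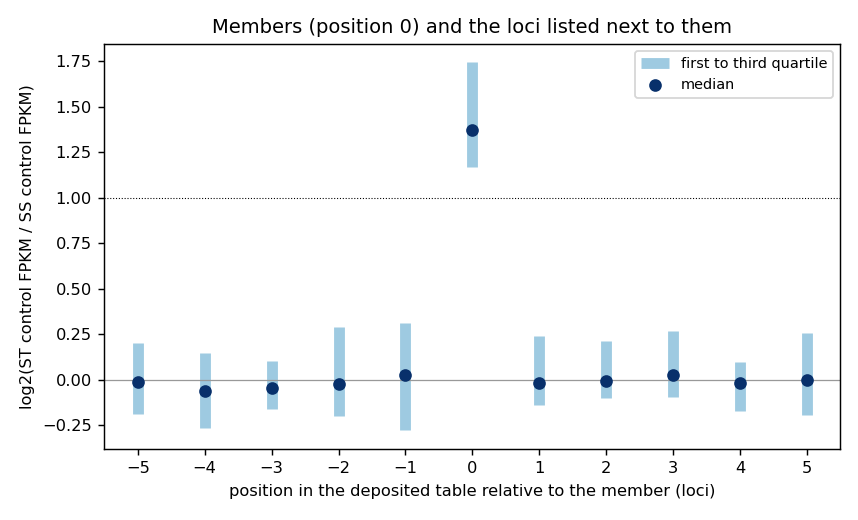
Log2 ratio of ST-C to SS-C FPKM at the members (position 0) and at loci listed 1 to 5 places before or after them in the deposited table, as the median (point) and the range from the first to the third quartile (bar). The members lie at a median of 1.37 because the rule chose them by this ratio, while the medians of the neighbours lie between -0.06 and 0.02.

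The loci just inside and just outside the limits were picked as the nearest to each limit. Their closeness was thus fixed beforehand and does not tell whether the boundary of the group marks a step. At 2-fold, Ca_00230 (lower ratio 2.002, FPKM 10.2 and 8.47 in SS, 20.5 and 28.2 in ST) and Ca_01477 (2.02) were the last loci inside. Ca_14696 (1.99, FPKM 112 and 117 in SS, 223 and 272 in ST) and Ca_07309 (1.98) were the nearest outside. At the minimum level, Ca_18372 was inside with FPKM 6.98 and 5.38 in ST, and Ca_22002 was outside with 4.02 and 4.23. At the salt limit, Ca_12155 was inside with a 1.499-fold higher ST value under stress, and Ca_12195 was outside at 1.52-fold, with FPKM 47.3 and 42.0 in SS and 117 and 178 in ST. Several gene names shared 1 FPKM value at a pair of members. These loci were XLOC_011345 (Ca_04501 and Ca_04502) and XLOC_014482 (4 names from Ca_17113 to Ca_17117), and such loci made up 3.77% of the 12544.

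With the genotypes exchanged, the same rule found 32 loci that were constantly higher in SS, 0.259% of 12362 loci, so the members were 2.41 times as many. This factor was 1.39 with 1.5-fold between the genotypes and 1.41 with salt changes under 1.2-fold. SS exceeded ST by a median of 2.70-fold in control and 2.67-fold under stress in the 32 loci, beside 2.58-fold and 3.23-fold in the opposite direction in the members. The exchanged set was more abundant in its higher genotype, with median FPKM of 31.6 and 30.9 in SS, than the members were in ST at 17.9 and 19.3. Of the 32 loci, 17 (53.1%) stayed within 1.2-fold of control in both genotypes, against 31.2% of the members. The 2 sets share all 4 columns, and their counts and levels are set side by side without a test.

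**Figure D4:**
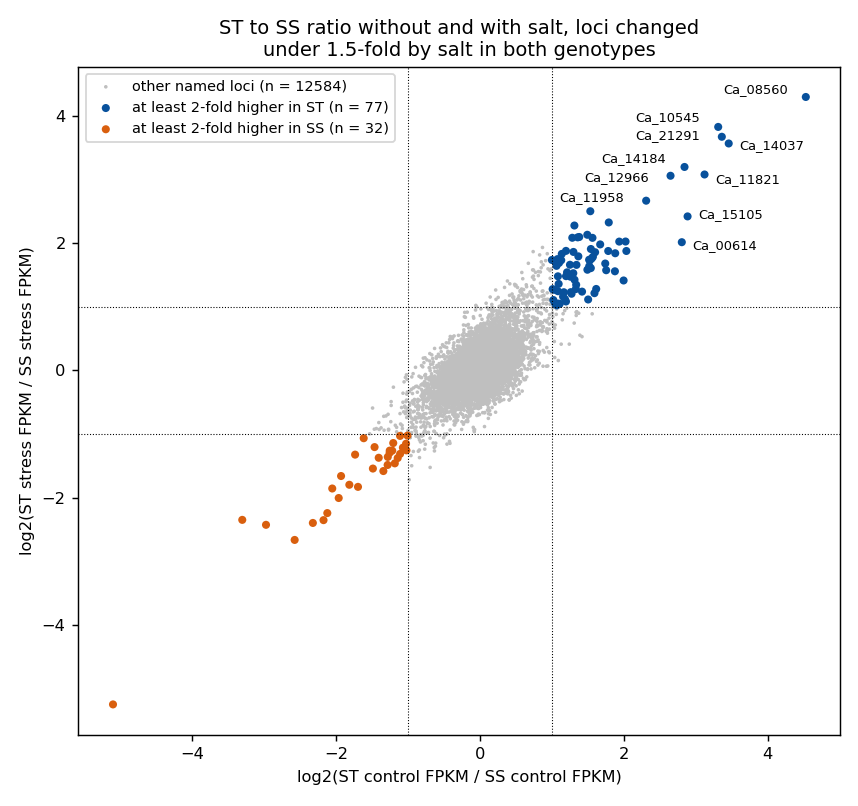
Log2 ratio of ST to SS FPKM in control (horizontal axis) and under salinity stress (vertical axis) for named loci with a salt change under 1.5-fold and FPKM of at least 5 in both groups of at least 1 genotype. Dotted lines mark 2-fold. The 77 members (blue) reach from the corner at 1 up to 4.53 and 4.30 in Ca_08560, and the 32 loci higher in SS (orange) lie in the opposite corner, with most other loci (grey) around 0.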

How the data were processed

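Root RNA of 8 libraries, 2 in each of 4 groups, was sequenced (49 bp, single-end). With NGS QC Toolkit the authors cleaned the reads of adapters and of Phred scores under 20, and they mapped the rest to the Kabuli chickpea genome with TopHat2 (2.1.1 in the submitters' processing notes, which also name Cufflinks 2.2.1 and Cuffdiff 2.2.1). The deposited values are FPKM, computed by the authors for each locus from both libraries of a group together. The scaling between libraries is not given in the sources used here. Ratios are plain FPKM ratios without a pseudocount. Since each group had 1 pooled column, the model planned for single libraries was not run, depth is unknown from the values, and no test or interval is given. The members and lists were chosen with earlier results of these data known. Genes were named by a rule: the 12 members of widest lower ratio, the 6 of highest ST level, the loci nearest each limit, the 3 with ratios furthest apart and the 3 of smallest salt change, and neighbouring members. Other loci were named after their values were seen. Alternatives were column scalings, pseudocounts of 0.1 and 1, and other limits on level, fold, salt change and gene names. Steps were tested on simulated data. Python 3.11.15, pandas 2.3.3, numpy 2.4.6 and matplotlib 3.10.9 were used.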

Additional observations from a re-analysis of the deposited data

How the results depend on the processing

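The number of members depended on the limits and little on the scaling. Scaling the columns by median ratio or by upper quartile gave 78 and 82 loci, of which 74 and 76 were among the 77, and a pseudocount of 0.1 or 1 gave 77 and 67, of which 76 and 61 were. In all 77 members ST stayed above SS under these 4 alternatives. The 2-fold requirement fixed this beforehand, since the scalings were small and a pseudocount cannot reverse a ratio. It is not read as support for the members. Without a minimum level there were 129 members, and 24 with salt changes under 1.2-fold. With 1.5-fold between the genotypes there were 247, and with 3-fold 19. The loci higher in SS numbered 32, and 62 without a minimum level, 49 with a minimum of 1, 17 with salt changes under 1.2-fold, 51 with salt changes under 2-fold, 51 with loci without a gene name admitted, 178 at 1.5-fold and 12 at 3-fold. The members at 4-fold or more numbered 11, and 20 without a minimum level, 17 with a minimum of 1 and 4 with salt changes under 1.2-fold. Under each alternative run there were more members than loci higher in SS, by a factor from 1.39 (1.5-fold between the genotypes) to 2.41. No paired analysis was possible because the table holds 1 pooled column per group, and for the same reason no library could be left out in turn.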

Other observations

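A few loci met the numerical pattern but not the wording of the rule, and were picked after their values were seen. Ca_24767 (XLOC_005223) was listed at 0 in both SS groups and had FPKM 9.996 in ST-C and 12.3 in ST-S. It was the only named locus listed at 0 in both SS groups that met the other requirements. A further 12 loci without a gene name met every numerical limit. Among them XLOC_030444 had FPKM 0.0388 in SS-C, 0.0450 in SS-S, 15.6 in ST-C and 11.7 in ST-S, a lower ratio of 260.1, wider than in any named member. XLOC_030442, listed 2 places before it, had 8.08 and 10.3 in SS and 42.3 and 40.1 in ST.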
